A study of Mus musculus with 3 samples.

Results

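Fetal Leydig and androgen synthesis genes were examined in male mouse gonads lacking the retinoic acid-degrading enzyme CYP26B1. The set holds 10 genes, namely Star, Cyp11a1, Fdx1, Cyp17a1, Hsd3b1, Hsd17b1, Hsd17b3, Hsd17b7, Insl3 and Cited4. A probe was counted as theirs when its transcript accession mapped to one of these symbols in a mouse RefSeq gene table. This found 15 of 41149 usable probes, standing for 9 of the 16531 named genes on the array. Insl3, the Leydig cell hormone of testis descent, matched 0 probes and was not analysed here. All 15 probes were well above background on both arrays of every genotype, and 0 were saturated.

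Fetal Leydig cells lie between the testis cords and secrete androgens that masculinise the fetus. STAR carries cholesterol into mitochondria, where CYP11A1 cuts its side chain with electrons passed on by ferredoxin 1 (FDX1). HSD3B1 and CYP17A1 then turn pregnenolone into androstenedione. In the fetal mouse testis the last reduction, to testosterone, takes place in Sertoli cells, which carry 17β-hydroxysteroid dehydrogenases that fetal Leydig cells lack.

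Whole male gonads were taken at embryonic day 14.5 from embryos of mouse line MCH, and their total RNA was read on 1-colour Agilent arrays. The 3 genotypes, 2 arrays for each, were Cyp26b1+/+/Stra8+/+ (wild type), Cyp26b1-/-/Stra8+/+ (Cyp26b1 knockout) and Cyp26b1-/-/Stra8-/- (double knockout). By these labels both mutants lack Cyp26b1, while Stra8, a retinoic acid-responsive gene of meiotic entry in germ cells, is missing in the double knockout alone. The comparisons ask how the androgen genes differ without Cyp26b1, without both genes, and between these mutants. The design text calls the duplicates biological. Whether an array carried RNA of 1 embryo or of several is not stated, so the p-values speak for the spread of these arrays alone. In whole-gonad RNA, fewer cells expressing a gene and less RNA per cell cannot be told apart. Such RNA also does not show whether a gene of the set was read from Leydig or from Sertoli cells.

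Levels are log2 signals minus the array's 75th percentile, so a value of 0 is a probe as bright as that percentile. Changes are differences of genotype means, and their errors are standard errors (SE) of the limma fit with n = 2 arrays per genotype. A change was called at a limma adjusted p below 0.05, taken over all 22266 features tested. Unscaled 75th percentiles ran from 997 to 1532 intensity units over the arrays, and 61.9% to 68.6% of probes were well above background. The genotypes are those of the labels. The single Cyp26b1 probe read 4.23 and 3.78 in the arrays labelled Cyp26b1 knockout and 3.99 and 3.79 in wild type, which overlap. The single Stra8 probe read 5.94 and 6.10 in the arrays labelled double knockout, above the 3.69 and 2.37 of wild type but below the 7.15 and 6.99 of the arrays labelled Cyp26b1 knockout, by a change of -1.06 ± 0.36 (limma adjusted p = 0.0477). That Stra8 call was lost when any 1 of the 4 mutant arrays was left out (adjusted p from 0.0968 to 0.162), without the filter on dim probes (0.0727) or without the variance trend (0.0987). The position of either probe against its deletion is not stated, and a probe outside the deletion cannot check the label. Each genotype lay on a slide of its own, so slide and genotype cannot be told apart. Wild type and double knockout were scanned on 1 day and the Cyp26b1 knockout on another, so scan day cannot be told apart from genotype in either comparison with the Cyp26b1 knockout.

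In the arrays labelled Cyp26b1 knockout, 7 of the 9 measured genes were lower than in wild type, 1 was higher (Cited4) and 1 was not called (Cyp11a1). The background is high here, since 51.2% of all features were called, 29.7% of all being lower and 21.5% higher. The median change of the 9 genes was -0.80, against -0.088 over all features. In the double knockout, 4 genes were lower than in wild type (Star, Hsd17b1, Hsd17b3 and Hsd17b7), 1 was higher (Cited4) and 4 were not called. There the background was 11.8% of features, 6.55% lower and 5.22% higher, and the median changes were -0.55 for the 9 genes and -0.019 for all features. Between the mutants, 4 genes were higher in the double knockout than in the Cyp26b1 knockout (Star, Fdx1, Hsd3b1 and Hsd17b7) and 2 were lower (Hsd17b3 and Cited4), against a background of 43.0%, with 25.0% higher and 18.0% lower. These comparisons share arrays. Changes of at least 2-fold were seen in 4, 3 and 1 of the 9 genes, in this order of comparisons. Over all features the shares were 17.4%, 6.20% and 11.2%, so the count between the mutants is near the background and is no result about the set. A fit of the wild type and double knockout arrays alone called the same 5 genes. The changes are the same in that fit by construction, and only the estimate of the spread differs.

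The calls depended on how local background was handled and on the scaling. Normexp correction over all spots, which called far fewer features (3728 in place of 11401 in the Cyp26b1 knockout), lost the falls of Cyp17a1, Hsd3b1 and Fdx1 there (adjusted p = 0.642, 0.490 and 0.116) and of Hsd17b7 in the double knockout (0.164). It also lost the differences of Hsd3b1, Fdx1 and Cited4 between the mutants (0.262, 0.332 and 0.247). Fitted without marked spots, the same correction kept every call of the set, with Cyp11a1 left untested for want of usable spots. The scaling of the authors' table moved all changes by 0.10, -0.20 and -0.30 in the 3 comparisons, and in the double knockout against wild type 13.4% of called features were then higher in place of 44.4%.

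**Figure D1:**
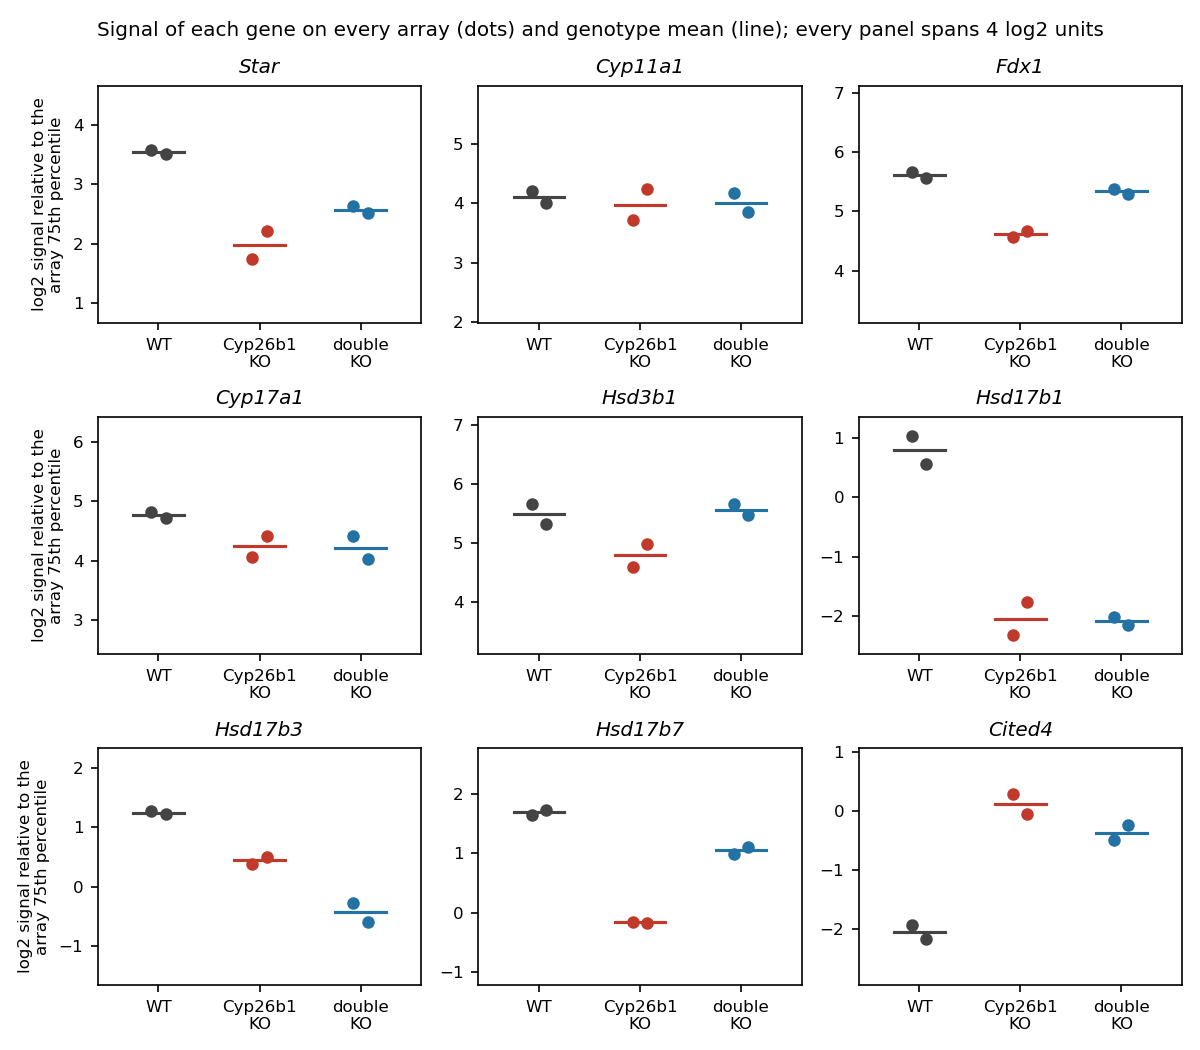
Log2 signal scaled to the array's 75th percentile (vertical axis) for the brightest probe of each gene, by genotype (horizontal axis, with WT for wild type and KO for knockout). Dots are arrays and lines are means of 2 arrays, and every panel spans 4 log2 units. Hsd17b1 lies between -2.33 and -1.77 in both mutants against 0.57 and 1.04 in wild type, Hsd17b7 and Fdx1 lie between in the double knockout, and Hsd17b3 is lowest in the double knockout.

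Star, the cholesterol carrier that limits the rate of steroid synthesis, was lower in both mutants. Its brightest probe read 3.58 and 3.52 in wild type, 1.74 and 2.21 in the Cyp26b1 knockout, and 2.64 and 2.51 in the double knockout. No values overlapped between genotypes, and the double knockout lay in between. The change was -1.57 ± 0.15 in the Cyp26b1 knockout (a 2.98-fold fall, limma adjusted p = 0.000265) and -0.97 ± 0.15 in the double knockout (a 1.96-fold fall, adjusted p = 0.00837). The mutants differed by 0.60 ± 0.15, higher in the double knockout (adjusted p = 0.0154). The second Star probe gave changes of -1.06 and -0.67, both called when every probe was tested as a feature of its own (adjusted p = 0.00194 and 0.0474). That fit called 53.3%, 11.5% and 45.8% of 27864 probes in the 3 comparisons. It did not call the difference between the mutants, which was 0.39 (adjusted p = 0.105). The fall in the double knockout was no longer called without wild type replicate 1 (adjusted p = 0.0614) or replicate 2 (0.0592), and the difference between the Star levels of the mutants was not called without double knockout replicate 1 (0.0682), after quantile normalization (0.0568) or with the scaling of the authors' table (0.144).

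Cyp11a1, whose enzyme takes the first step from cholesterol, was not called in any comparison by its brightest probe. Signals were 4.21 and 4.0 in wild type, 3.71 and 4.25 in the Cyp26b1 knockout, and 4.17 and 3.85 in the double knockout. All genotypes overlapped. Changes against wild type were -0.12 ± 0.19 (95% confidence interval -0.56 to 0.31, adjusted p = 0.608) and -0.09 ± 0.19 (-0.53 to 0.34, adjusted p = 0.775), and the mutants differed by 0.03 ± 0.19 (-0.41 to 0.47, adjusted p = 0.915). The second Cyp11a1 probe disagreed. It read 3.55 and 3.45 in wild type, 3.84 and 4.33 in the Cyp26b1 knockout and 3.62 and 3.42 in the double knockout, so that the Cyp26b1 knockout alone lay above. Tested on its own it was 0.59 higher in the Cyp26b1 knockout than in wild type (adjusted p = 0.0169), and 0.56 higher there than in the double knockout (change -0.56, adjusted p = 0.0234). No direction is therefore given for Cyp11a1.

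Fdx1, the electron carrier of mitochondrial P450 enzymes, was lower in the Cyp26b1 knockout. Its signals were 5.66 and 5.57 in wild type, 4.57 and 4.67 in the Cyp26b1 knockout, and 5.39 and 5.29 in the double knockout, with no overlap between genotypes. The change in the Cyp26b1 knockout was -0.99 ± 0.09 (a 1.99-fold fall, limma adjusted p = 0.000253). In the double knockout it was -0.28 ± 0.09 (95% confidence interval -0.49 to -0.07), which missed the threshold (adjusted p = 0.0923), although it passed with the scaling of the authors' table (adjusted p = 0.0135) and with normexp background correction fitted without marked spots (0.04997). Fdx1 was 0.71 ± 0.09 higher in the double knockout than in the Cyp26b1 knockout (adjusted p = 0.00134). All 3 Fdx1 probes moved alike, with changes from -0.99 to -0.85 in the Cyp26b1 knockout and from -0.32 to -0.28 in the double knockout.

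Hsd3b1, which converts pregnenolone to progesterone, was lower in the Cyp26b1 knockout, while its double knockout arrays overlapped wild type. Its single probe read 5.65 and 5.33 in wild type, 4.60 and 4.99 in the Cyp26b1 knockout, and 5.65 and 5.47 in the double knockout. The Cyp26b1 knockout lay below all other arrays. The change was -0.70 ± 0.16 in the Cyp26b1 knockout (limma adjusted p = 0.00942), 0.07 ± 0.16 in the double knockout (95% confidence interval -0.31 to 0.45, adjusted p = 0.814) and 0.77 ± 0.16 between the mutants (adjusted p = 0.00834). The fall in the Cyp26b1 knockout was not called without wild type replicate 1 (adjusted p = 0.0668), and the Hsd3b1 difference between the mutants not with the scaling of the authors' table (0.0522). Hsd3b1 has near-identical copies that may share its probe, so its values are uncertain. The probe of the copy Hsd3b6 went the other way in the Cyp26b1 knockout, by 0.57 ± 0.14 (adjusted p = 0.0125). For Hsd3b2 the brightest probe gave 0.78 ± 0.17 (adjusted p = 0.00672) and a dimmer one above background gave -0.0048, so no direction is given for it.

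Cyp17a1, the enzyme that turns progestins into androgens, had a single probe that read 4.82 and 4.72 in wild type, 4.06 and 4.42 in the Cyp26b1 knockout, and 4.42 and 4.03 in the double knockout. Both mutants lay below wild type and overlapped each other. The change was -0.53 ± 0.16 in the Cyp26b1 knockout, a 1.45-fold fall (limma adjusted p = 0.0277). That call rested on the settings, since Cyp17a1 was not called after quantile normalization (adjusted p = 0.0826), without wild type replicate 1 (0.125), without wild type replicate 2 (0.0764), without Cyp26b1 knockout replicate 1 (0.136), without the filter on dim probes (0.0601), without the variance trend (0.0659) or with the scaling of the authors' table (0.0601). The change in the double knockout, -0.55 ± 0.16, was of like size and missed the threshold (adjusted p = 0.0695), but passed without double knockout replicate 1 (0.0476), with normexp fitted without marked spots (0.0475) and with the scaling of the authors' table (0.0191). The mutants differed by -0.02 ± 0.16 (95% confidence interval -0.40 to 0.36, adjusted p = 0.940).

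**Figure D2:**
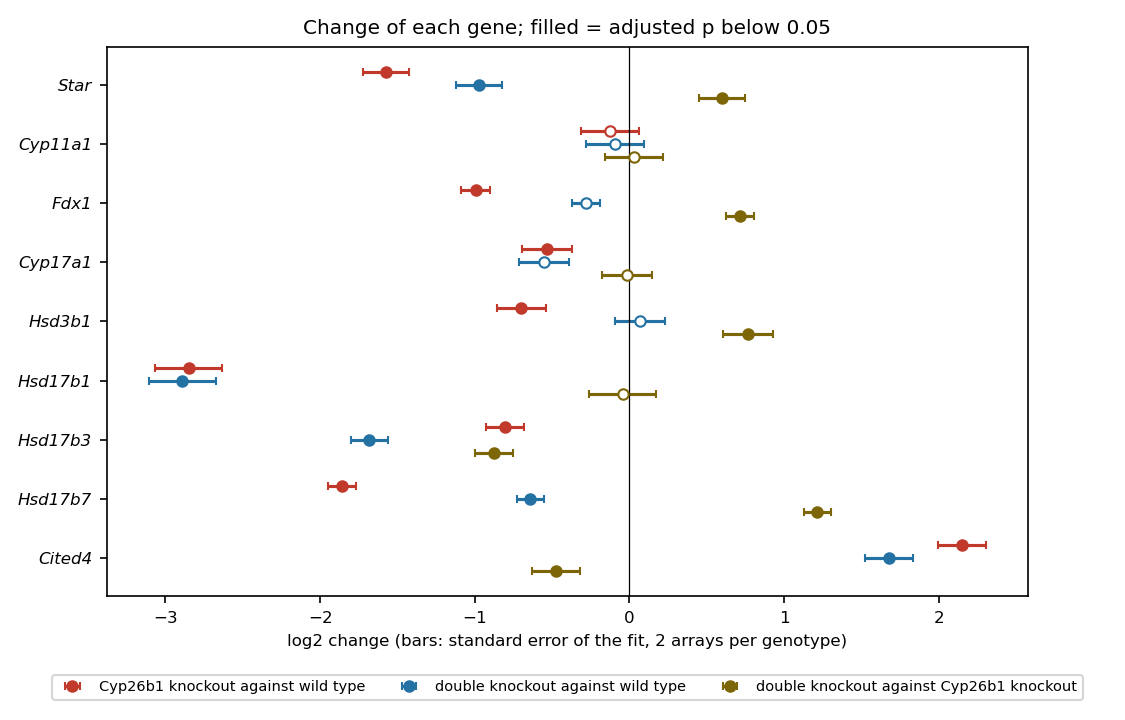
Log2 change (horizontal axis) of the brightest probe of each gene (rows) in the 3 comparisons, with bars for the standard error of the fit on 2 arrays per genotype. Filled points have an adjusted p below 0.05. Hsd17b1 has the lowest values against wild type, at -2.85 and -2.89, and Cited4 the highest, at 2.15 and 1.68.

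Among the 17β-hydroxysteroid dehydrogenases, Hsd17b1 showed the largest fall of the 9 genes in both mutants. The enzyme reduces estrone to estradiol and, in rodents, androstenedione to testosterone. Its single probe read 1.04 and 0.57 in wild type, -2.33 and -1.77 in the Cyp26b1 knockout, and -2.02 and -2.16 in the double knockout. Both mutants lay far below wild type and overlapped each other. The change was -2.85 ± 0.22 in the Cyp26b1 knockout (a 7.21-fold fall, limma adjusted p = 0.000146) and -2.89 ± 0.22 in the double knockout (a 7.42-fold fall, adjusted p = 0.000766). Between the mutants Hsd17b1 differed by -0.04 ± 0.22 (95% confidence interval -0.55 to 0.46, adjusted p = 0.890).

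Hsd17b3, the testis enzyme that makes testosterone from androstenedione, fell in both mutants and was lowest in the double knockout. Its probe read 1.27 and 1.22 in wild type, 0.39 and 0.50 in the Cyp26b1 knockout, and -0.27 and -0.59 in the double knockout. The 3 genotypes did not overlap. The change was -0.80 ± 0.12 in the Cyp26b1 knockout (a 1.75-fold fall, limma adjusted p = 0.00154) and -1.68 ± 0.12 in the double knockout (a 3.21-fold fall, adjusted p = 0.00067). The double knockout was lower than the Cyp26b1 knockout by a change of -0.88 ± 0.12 (adjusted p = 0.00171). Hsd17b3 was the only measured gene of the set to lie below both other genotypes in the double knockout with all 3 comparisons called. These calls held under every alternative setting tried.

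Hsd17b7, which acts both on estrone and in cholesterol synthesis, fell most in the Cyp26b1 knockout. Its brightest probe read 1.65 and 1.73 in wild type, -0.16 and -0.18 in the Cyp26b1 knockout, and 0.99 and 1.11 in the double knockout. The genotypes did not overlap, and the double knockout lay nearer to wild type. The change was -1.86 ± 0.09 in the Cyp26b1 knockout (a 3.63-fold fall, limma adjusted p = 5.41e-05) and -0.64 ± 0.09 in the double knockout (a 1.56-fold fall, adjusted p = 0.00603). The second call was lost without wild type replicate 2 (adjusted p = 0.0626). The double knockout was 1.22 ± 0.09 higher than the Cyp26b1 knockout (a 2.32-fold difference, adjusted p = 0.000397). The second Hsd17b7 probe also read lower in both mutants, with changes of -0.56 and -0.48 (adjusted p = 0.00254 and 0.0247 with every probe tested), but the mutants differed there by 0.09 (adjusted p = 0.495). The size of the Hsd17b7 fall in the Cyp26b1 knockout and its difference between the mutants thus rest on 1 of 2 probes.

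Cited4, a coactivator that binds CBP and p300 and is used as a marker of fetal Leydig cells, was the gene of the set that rose. Its brightest probe read -1.93 and -2.16 in wild type, 0.28 and -0.06 in the Cyp26b1 knockout, and -0.49 and -0.24 in the double knockout. Every mutant array lay above wild type, and the mutants did not overlap. The rise was 2.15 ± 0.16 in the Cyp26b1 knockout (4.45-fold, limma adjusted p = 0.000126) and 1.68 ± 0.16 in the double knockout (3.20-fold, adjusted p = 0.0017). The second Cited4 probe gave rises of 1.93 and 1.44. The difference between the mutants was -0.47 ± 0.16 (adjusted p = 0.0423), a call that Cited4 lost without either wild type replicate (0.0554 and 0.0544), without Cyp26b1 knockout replicate 1 (0.197), without double knockout replicate 1 (0.182), after quantile normalization (0.0533), without the filter (0.0513), without the variance trend (0.0760) and in a fit of the mutants alone (0.0505).

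**Figure D3:**
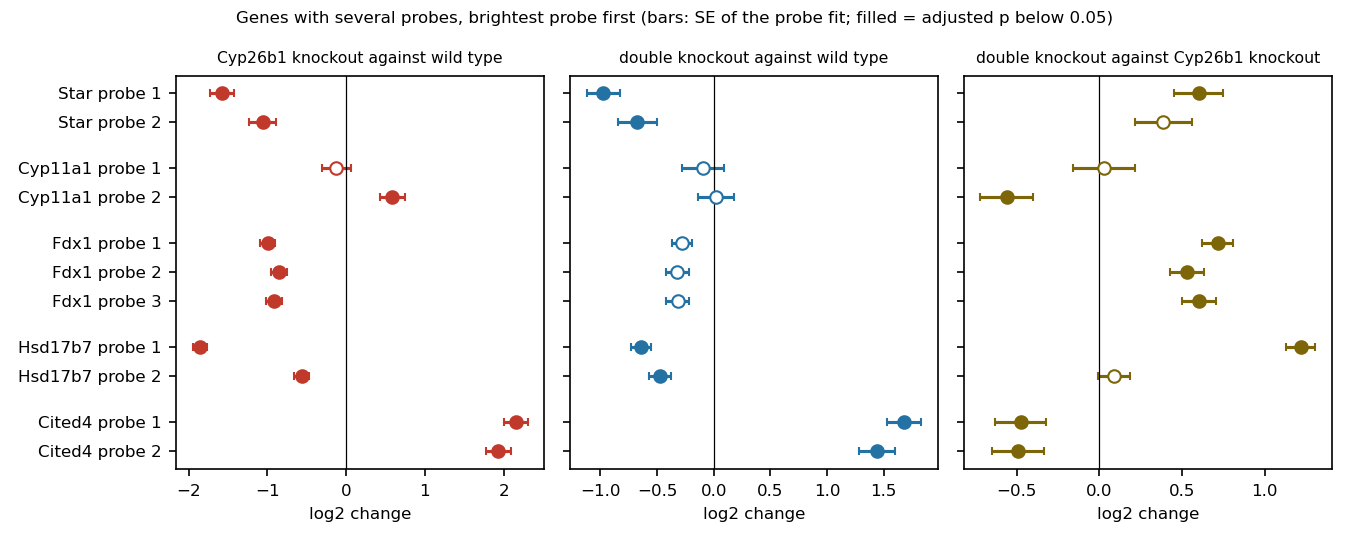
Log2 change (horizontal axes) for every probe of the genes with more than 1 probe (rows, brightest first), with bars for the standard error of a fit in which each probe was a feature. Filled points have an adjusted p below 0.05. The 3 Fdx1 probes and the 2 Cited4 probes move alike, while those of Cyp11a1 disagree and those of Hsd17b7 differ in size.

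The bases before the starts of Hsd17b7, Cited4 and Hsd17b3 are shown because these genes took 3 different courses over the genotypes. They are the 250 bases upstream of each gene's start in the RefSeq table of build GRCm38.p6, written 5′ to 3′ on the gene's strand, with CCAAT and its reverse complement ATTGG in capitals. Hsd17b7 lies at chr1:169969206-169969455 on the minus strand, Cited4 at chr4:120666313-120666562 on the plus strand and Hsd17b3 at chr13:64089202-64089451 on the minus strand.
Hsd17b7: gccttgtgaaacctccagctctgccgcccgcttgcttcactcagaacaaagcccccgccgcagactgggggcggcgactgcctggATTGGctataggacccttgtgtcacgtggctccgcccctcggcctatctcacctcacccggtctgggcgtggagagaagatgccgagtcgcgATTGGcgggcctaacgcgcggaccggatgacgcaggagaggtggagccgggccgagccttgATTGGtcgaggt
Cited4: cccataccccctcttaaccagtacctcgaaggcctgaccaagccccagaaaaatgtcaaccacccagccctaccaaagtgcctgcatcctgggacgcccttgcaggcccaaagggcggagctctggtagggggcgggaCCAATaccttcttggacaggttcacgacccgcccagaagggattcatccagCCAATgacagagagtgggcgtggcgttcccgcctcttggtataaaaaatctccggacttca
Hsd17b3: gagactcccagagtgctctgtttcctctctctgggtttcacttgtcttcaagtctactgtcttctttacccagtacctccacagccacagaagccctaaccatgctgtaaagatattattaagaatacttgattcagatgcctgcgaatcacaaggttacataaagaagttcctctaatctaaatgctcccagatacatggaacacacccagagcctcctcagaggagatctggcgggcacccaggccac

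The Hsd17b7 stretch holds 3 copies of CCAAT or ATTGG, that of Cited4 holds 2 and that of Hsd17b3 holds 0. Of the entries not shown, Hsd3b1 holds 1, Cyp11a1 1 and 0, Fdx1 0 and Insl3 0. Fdx1 and Hsd3b1, like Hsd17b7, were lower in the Cyp26b1 knockout than in both other genotypes. Whether the counts go with the courses of the genes was not tested. Over all 32851 promoters of the same length, 33.8% held at least 1, 10.1% at least 2 and 2.79% at least 3. CCAAT was searched after these promoters had been read, so its counts are a description. Entries were found for 7 of the 10 genes, 8 entries in all, with 2 for Cyp11a1. Star, Cyp17a1 and Hsd17b1 had no entry, so their promoters were not searched. AAGGTCA and AAGGCCA, the core letters that SF-1 binds, were on either strand in 0 of the 8, against 9.09% of all promoters. With so few entries, 0 is no result about the set. A match or its lack in these windows says only which letters are there.

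The members cover a wide span of brightness, and the features as a whole shifted with brightness. Star, for example, averaged 2.70 over the 6 arrays, and features from 2 to 4 had a median change of -0.15 in the Cyp26b1 knockout with quartiles of -0.43 and 0.13. The Star change of -1.57 lay below that lower quartile. Fdx1 (-0.99), Hsd3b1 (-0.70) and Cyp17a1 (-0.53) lay below the lower quartile of -0.37 of features above 4. Between the mutants, features above 4 had a median of 0.24, against -0.065 for those below -2. The upper quartile of features above 4 was 0.40, which the Fdx1 difference of 0.71 and the Hsd3b1 difference of 0.77 exceeded. Cyp11a1 (0.03) and Cyp17a1 (-0.02), also above 4, lay below the lower quartile of 0.058.

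**Figure D4:**
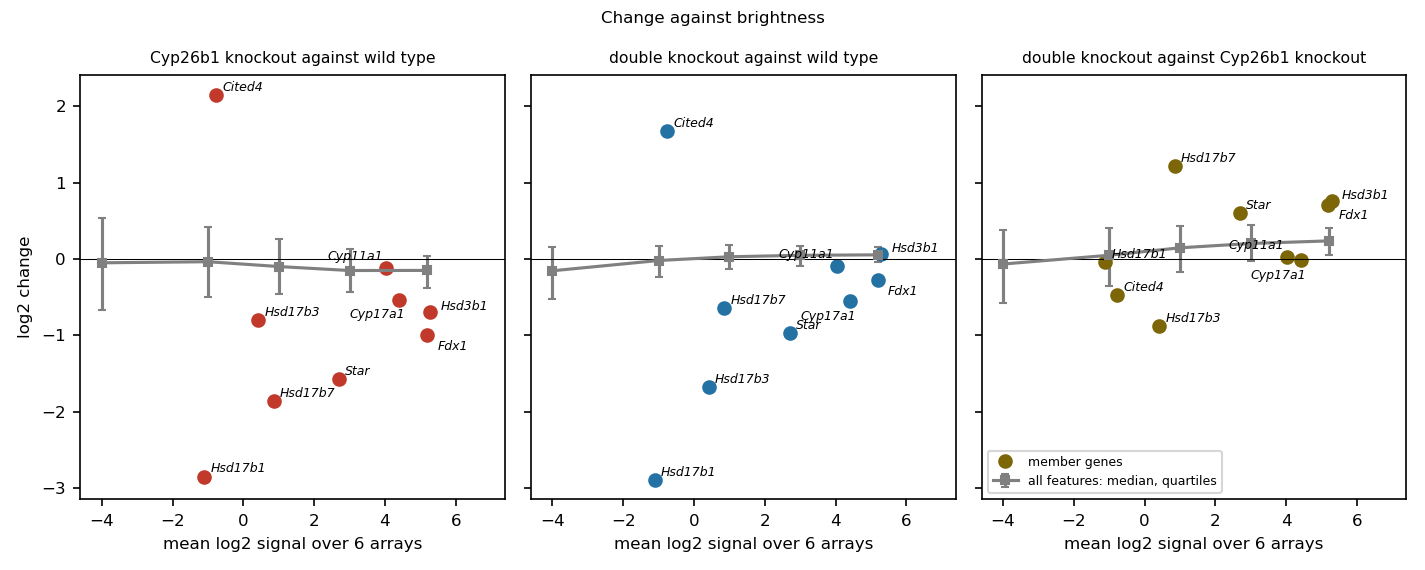
Log2 change (vertical axis) against the mean log2 signal over the 6 arrays (horizontal axis) for the 9 genes, in the 3 comparisons. Grey squares and bars give the median and quartiles of all features in 5 ranges of brightness, with the outer squares standing for features below -2 and above 4. Hsd17b1, Hsd17b7, Hsd17b3, Star, Cyp17a1 and Fdx1 lie below the lower quartile of their range in both comparisons with wild type, and Cited4 lies above the bars in these. Between the mutants Cited4, at -0.47, lies below its lower quartile of -0.36.

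Other enzymes and carriers of steroid synthesis were read from a list of 30 genes, of which 25 could be tested. In the Cyp26b1 knockout 10 of these fell and 5 rose, with a median change of -0.12, against the 29.7% lower and 21.5% higher of all features. Stard4, a cholesterol carrier of the cytosol, changed by -1.42 ± 0.09 (limma adjusted p = 9.01e-05), but its dimmer probes read 0.43 and 0.32, so its direction rests on 1 of 3 probes. Fdxr, the reductase that hands electrons to ferredoxin, read 5.32 and 5.14 in wild type and 4.16 and 4.18 in the Cyp26b1 knockout. Like Fdx1, it did not overlap between genotypes, with 4.78 and 4.63 in the double knockout. Fdxr changed by -1.06 ± 0.10 in the Cyp26b1 knockout (adjusted p = 0.000263) and by -0.53 ± 0.10 in the double knockout (adjusted p = 0.0177), and the mutants differed by 0.53 ± 0.10 (adjusted p = 0.0052). The fall in the double knockout was not called when wild type replicate 1 (0.120) or 2 (0.0626) or double knockout replicate 2 (0.0987) was left out. Srd5a1, a 5α-reductase, and Mrap, a partner of the ACTH receptor, fell in the Cyp26b1 knockout by -0.79 ± 0.08 (adjusted p = 0.000398) and -0.69 ± 0.09 (adjusted p = 0.000831). Their double knockout changes of -0.30 (adjusted p = 0.0603) and 0.10 (adjusted p = 0.489) were not called.

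Of the 25 partners 5 fell in the double knockout and 2 rose, with a median change of -0.05, where 6.55% of all features were lower and 5.22% higher. Nr0b1, a nuclear receptor that represses steroid synthesis genes and is also a Sertoli gene at this stage, was higher in both mutants. Its change was 0.60 ± 0.11 in the Cyp26b1 knockout (limma adjusted p = 0.00333) and 1.25 ± 0.11 in the double knockout (2.39-fold, adjusted p = 0.00136). Stard4 changed by -0.48 ± 0.09 (adjusted p = 0.016), a call lost without either wild type array (0.110 and 0.0930) or without double knockout replicate 2 (0.0786). Hsd17b2, which oxidises testosterone, was above background in wild type, at -5.37 and -3.65, and not well above background in either mutant. It was at least 3.59-fold lower in the Cyp26b1 knockout and at least 2.25-fold lower in the double knockout. With wild type replicate 1 alone these bounds were 1.98 and 1.24, and with replicate 2 alone 6.52 and 4.09. Hsd17b2 entered the test through its wild type level alone, so no p is given for it, although it is counted among the falls of both mutants. With normexp over all spots, Stard4 (0.303) and Fdxr (0.895) were not called in the double knockout. Between the mutants 9 of the 25 were higher in the double knockout and 5 lower, with a median of 0.01, against 25.0% and 18.0% of all features. Stard4 (0.94 ± 0.09), Mrap (0.79 ± 0.09), Nr0b1 (0.65 ± 0.11) and Srd5a1 (0.49 ± 0.08) were among the higher ones, although Srd5a1 was not called with the scaling of the authors' table (adjusted p = 0.117) or with normexp over all spots (0.185). Nr5a1, which encodes the SF-1 regulator of steroid genes, was not called in the Cyp26b1 knockout (0.46 ± 0.18, adjusted p = 0.066) or the double knockout (-0.28 ± 0.18, adjusted p = 0.339), while the mutants differed by -0.74 ± 0.18 (adjusted p = 0.0143).

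**Figure D5:**
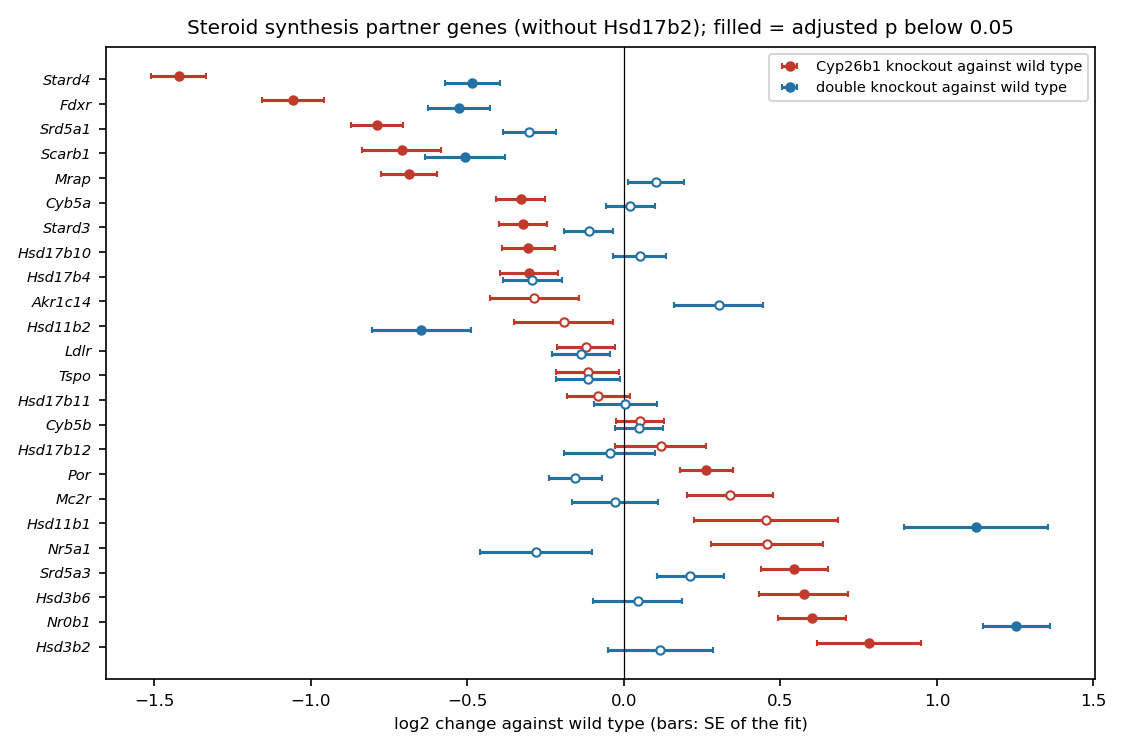
Log2 change against wild type (horizontal axis) of the steroid synthesis partner genes tested (rows) in the Cyp26b1 knockout and the double knockout, with bars for the standard error of the fit. Filled points have an adjusted p below 0.05. Hsd17b2, known only as a bound, is not drawn. Stard4 and Fdxr lie lowest in the Cyp26b1 knockout, at -1.42 and -1.06.

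Of 31 signals and regulators of Leydig cells, 29 were tested. In the Cyp26b1 knockout 13 fell and 6 rose, with a median change of -0.28, again beside 29.7% and 21.5% of all features. Pdgfa, a ligand that Sertoli cells send to the interstitium, changed by -1.50 ± 0.10 (limma adjusted p = 9.94e-05), and its second probe read -1.10. Igf1r, an insulin-like growth factor receptor, changed by -1.12 ± 0.12 (adjusted p = 0.000366), with its 3 probes all lower. Pdgfra, the receptor of PDGFA on Leydig progenitors, and Lhx9, a gonadal transcription factor, gave -1.07 and -0.82 by their brightest probes but 0.74 and 0.76 by dimmer ones, so no direction is given for them. Lhcgr, the receptor of luteinising hormone, was not called (-0.66 ± 0.28, adjusted p = 0.0795).

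Of the 29 regulators 1 rose and 2 fell in the double knockout, with a median change of -0.14. This is near the background of 11.8% of features called, and is no result about the list. Pdgfa changed by -1.0 ± 0.10 (limma adjusted p = 0.00205), while its dimmer probe read -1.18. Amhr2, the receptor of anti-Müllerian hormone, rose by 0.58 ± 0.09 (adjusted p = 0.00758), but was not called when wild type replicate 1 (0.0603), replicate 2 (0.0737) or double knockout replicate 2 (0.0513) was left out. Inhbb, an activin and inhibin subunit, changed by -0.53 ± 0.11 (adjusted p = 0.0246), and that call was lost without any 1 of the same arrays (0.142, 0.0952 and 0.109). Normexp over all spots called neither Amhr2 (0.366) nor Inhbb (0.567). Between the mutants 10 were higher in the double knockout and 6 lower, with a median of 0.18, where 43.0% of all features were called. Igf1r was among the higher ones (0.89 ± 0.12, adjusted p = 0.00143). Gata6, a factor that binds steroid gene promoters, was higher by 0.71 with its brightest probe, but its others read 0.02 and -1.09.

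Insl3 itself had no probe, but 7 genes of its pathway and of testis descent were listed, of which 4 were tested. Its receptor Rxfp2 was not well above background on any array. Wnt5a, a signal in the mesenchyme of the descending gonad, read -2.95 and -2.86 in wild type, -2.07 and -2.21 in the Cyp26b1 knockout, and -3.36 and -3.60 in the double knockout. The genotypes did not overlap. Wnt5a rose by 0.76 ± 0.16 in the Cyp26b1 knockout (limma adjusted p = 0.00542), had a change of -0.57 ± 0.16 in the double knockout that was not called (adjusted p = 0.0553, or 0.0155 with the scaling of the authors' table), and was lower in the double knockout than in the Cyp26b1 knockout by a change of -1.34 ± 0.16 (adjusted p = 0.000983). Under normexp over all spots the Wnt5a change in the Cyp26b1 knockout was -0.053 (adjusted p = 0.952), and that between the mutants was not called (0.796). Esr1, an estrogen receptor, was 0.47 ± 0.13 higher in the double knockout than in the Cyp26b1 knockout (adjusted p = 0.0254), but not when Cyp26b1 knockout replicate 2 (0.0952) or either double knockout array (0.0700 and 0.0941) was left out, with the scaling of the authors' table (0.337) or with normexp over all spots (0.509).

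The Leydig identity of the tissue was read from 15 markers, of which 14 had probes, all well above background. Their summed linear signal, in units of the 75th percentile, was 237 and 222 in wild type, 142 and 170 in the Cyp26b1 knockout, and 218 and 190 in the double knockout. The Cyp26b1 knockout arrays were the lowest. This sum includes 7 measured genes of the set, so it partly restates their changes and is no separate reading of Leydig cells. In this list 8 fell and 2 rose in the Cyp26b1 knockout, 3 fell and 1 rose in the double knockout, and 6 were higher and 2 lower between the mutants, beside 51.2%, 11.8% and 43.0% of all features called. The list shares 7 measured genes with the set, so the other 7 are given by name. Vnn1, a pantetheinase (-0.76 ± 0.15, adjusted p = 0.00456), Scarb1 (-0.71 ± 0.13, adjusted p = 0.00316) and Cyb5a, a cytochrome b5 that aids CYP17A1 (-0.33 ± 0.08, adjusted p = 0.0102) fell in the Cyp26b1 knockout and Thbs2, a thrombospondin, rose (1.59 ± 0.22, adjusted p = 0.00105). Dlk1 (0.05), Ren1 (0.06) and Lhcgr were not called. In the double knockout only Scarb1, a receptor that takes up cholesterol, was called of these 7 (-0.51 ± 0.13, adjusted p = 0.0441). These 7 were not followed over the alternative settings, so how far their calls hold is unknown.

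Markers of other cell types were read beside the 51.2% of all features called in the Cyp26b1 knockout, and several lists lay near that share. Summed signals of 12 Sertoli markers were 139 and 158 in wild type, 181 and 174 in the Cyp26b1 knockout, and 184 and 156 in the double knockout, and 5 rose and 2 fell in the Cyp26b1 knockout. Among 10 interstitial and peritubular markers, 3 rose and 4 fell there. Their sums were 108.2 to 118 in wild type, 96.2 to 107.9 in the Cyp26b1 knockout and 140 to 145 in the double knockout. For 8 germ cell markers, 2 rose and 4 fell, with sums from 109 to 112 in wild type, from 65.8 to 78.8 in the Cyp26b1 knockout and from 87.3 to 97.7 in the double knockout. For 7 markers of blood and macrophages 2 rose and 2 fell, with sums of 217 and 193 in wild type, 133 and 172 in the Cyp26b1 knockout, and 202 and 187 in the double knockout. For 8 endothelial markers 5 rose and 2 fell, with sums from 7.94 to 9.68 over all arrays. Of 9 mesonephros and duct markers 2 rose and 3 fell, and of 4 tested markers of ovarian somatic cells 2 rose and 1 fell. Of the 2 mesonephros rises, that of Pax2 is no result, since Pax2 entered the test through its Cyp26b1 knockout level alone. Of the adrenal markers, Cyp21a1 and Cyp11b2 were not well above background on any array. The 3 adrenal markers tested summed to 4.11 and 3.8 in wild type and 2.05 and 1.91 in the Cyp26b1 knockout. In the double knockout they summed to 2.95 and 2.69. The Leydig, germ cell, blood, adrenal, and interstitial and peritubular sums were thus all lowest in the Cyp26b1 knockout. Of these, the Leydig sum includes genes of the set. Akr1b7, which is on the adrenal list and is also made by other steroid tissues, fell in both mutants by -1.48 ± 0.14 (limma adjusted p = 0.000283) and -1.18 ± 0.14 (adjusted p = 0.00383). How far the share of any cell type enters the changes of the androgen genes was not tested.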

How the data were processed

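Total RNA of whole male gonads was hybridised to 6 Agilent 1-colour arrays. The authors deposited scanner files of spot intensity values, which Agilent Feature Extraction had background-subtracted without scaling between arrays. Its version was 9.5 per the submitters' processing notes and 9.5.3.1 per the file headers. The authors' deposited value table holds a linear ratio per genotype, whose scaling reference is unknown. It was used as an alternative scaling only.

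Processed signals were taken as log2, minus each array's 75th percentile. Outlier spots were left out, spots of a probe averaged, and 25 probes without a usable spot dropped. Accessions were matched to RefSeq (GRCm38.p6), giving 23363 probes 1 symbol and 17786 none. Each symbol was represented by its brightest probe. Features that passed the scanner's background flag on both arrays of some genotype entered 1 fit of the 6 arrays (limma 3.58.1, R 4.3.3, eBayes with trend, two-sided, Benjamini-Hochberg, threshold 0.05). An "at least" fold is a lower bound, with the dim side set to the array's detection floor or, if higher, its measured signal. The fit was also run on simulated data with independent noise and few changed features. These data differ from that setting, so the run says nothing about slide, scan day or the high share of calls.

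The members and lists were chosen with earlier results of these data known. From each pathway list, up to 4 called genes with the smallest adjusted p per comparison are named. Other genes named beside them were chosen after their values were seen. Alternatives were the background correction, normalization, filter, probe choice, variance trend, replicate block and leaving out arrays.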

Additional observations from a re-analysis of the deposited data

How the results depend on the processing

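The 2 arrays per genotype limit the precision. With 1 left out, its lone partner is assumed to vary like the other genotypes. Of the settings for the 9 genes, 374 kept direction and side of the threshold, 30 lost a call, 5 gained one and 20 changed sign, all 20 in changes not called to begin with. These counts were 478, 36, 1 and 7 for Cyp26b1, Stra8 and the pathway genes with the smallest adjusted p, each in the comparisons where it ranked. Other named genes and comparisons were not followed over these settings.

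The numbers of features called (11401, 2621 and 9575, in the order Cyp26b1 knockout against wild type, double knockout against wild type, and between the mutants) became 3728, 542 and 2773 with normexp over all spots, an alternative added after seeing the data, as was normexp without marked spots. For double knockout against wild type they were 5131 with the authors' scaling and 1542 without the filter on dim probes, and between the mutants 14692 without that filter. Leaving out 1 array gave 7805 to 11395, 559 to 2890 and 6913 to 8291. Genes of the set called went from 8, 5 and 6 to 5 in the Cyp26b1 knockout and 3 between the mutants with normexp over all spots, and to 6 to 8, 3 to 6 and 4 to 6 with 1 array left out. The cause was not tested.

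The authors' scaling, that of their deposited value table, shifted all changes by 0.10, -0.20 and -0.30, and moved the higher share of calls from 42.1% to 52.1%, from 44.4% to 13.4% and from 58.2% to 22.4%. It was 51.0% for the double knockout against wild type after quantile normalization and 72.1% between the mutants without the filter.

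Signs changed as follows. Cyp11a1 in the Cyp26b1 knockout became 0.12 with normexp over all spots and 0.0044 after quantile normalization (-0.39 to 0.14 with 1 array left out). In the double knockout it became 0.094 with that normexp (-0.25 to 0.064). Between the mutants it became -0.023 with it, -0.14 after quantile normalization and -0.28 under the authors' scaling (-0.24 to 0.30). Hsd3b1 in the double knockout became -0.13 under the authors' scaling (-0.094 to 0.23). Hsd17b1 between the mutants became 0.10 with that normexp and 0.064 after quantile normalization (-0.32 to 0.23), and Cyp17a1 ranged from -0.21 to 0.18. Cyp26b1 in the double knockout became -0.12 under the authors' scaling (-0.022 to 0.18 with 1 array left out), and ranged from -0.11 to 0.34 in the Cyp26b1 knockout and -0.26 to 0.18 between the mutants. Wnt5a in the Cyp26b1 knockout became -0.053 with normexp over all spots.

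Nothing in the labels ties arrays of the same number. Deviations of same-numbered arrays correlated at 0.12, 0.22 and 0.12, and with 2 numbers this neither establishes nor excludes a pairing. A fit with the replicate number as a block called 12084, 3074 and 10309 features and changed no call of the 9 genes. Normexp on mean signals could not be run, since the spot signals beside the local background are medians, nor was the slide as a block, since each slide holds 1 genotype.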
